A study of Mus musculus with 19 samples.

Results

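Mitochondrial biogenesis regulators are the transcription regulators that set the output of nuclear and mitochondrial genes for respiration. The 10 regulators described here were chosen by name as *Ppargc1a*, *Ppargc1b*, *Pprc1*, *Nrf1*, *Gabpa*, *Esrra*, *Yy1*, *Tfam*, *Tfb2m* and *Polrmt*, and all 10 were found among the 54352 genes counted in every library. RNA was sequenced from LSK cells (Lineage- Sca1+ cKit+, named KLS in the labels), which hold stem and multipotent progenitor cells, and from common myeloid progenitors (CMPs). The donor HSCs were C57BL6, were transduced with a lentivirus in which an rtTA driven by the SFFV promoter lets doxycycline switch on zsGreen and an shRNA, and were transplanted into C57BL/6-CD45.1 recipients with the cKit-w41 allele after sublethal irradiation. After 10 weeks of reconstitution all animals, controls included, received doxycycline food for 6 days, and zsGreen+ cells were sorted. Hairpins sh10 and sh20 target the lncRNA *Spehd*, and the control hairpin 713 targets *Renilla* luciferase, which mouse cells lack. For sh10, sh20 and *Renilla* in turn there were 3, 2 and 4 CMP libraries, and 3, 3 and 4 LSK libraries. The zsGreen+ cells are the subset of donor cells that descend from transduced cells and kept the cassette active. The sources used here do not say whether replicate letters stand for separate animals, so p-values measure the spread between these libraries, which may be partly technical. No counted gene carries the name *Spehd*, so the level of the targeted RNA was not analysed here.

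Mitochondrial biogenesis is run from the nucleus. Coactivators of the PGC-1 family (*Ppargc1a*, *Ppargc1b* and *Pprc1*) dock on DNA-bound factors such as nuclear respiratory factor 1 (*Nrf1*), the GA-binding protein (*Gabpa*), oestrogen-related receptor alpha (*Esrra*) and *Yy1*, which bind the promoters of genes for the respiratory chain and for mitochondrial upkeep. Among their targets are *Tfam* and *Tfb2m*, which bring the mitochondrial RNA polymerase, encoded by *Polrmt*, to the promoters of mitochondrial DNA. Quiescent haematopoietic stem cells are known to rely little on respiration, and myeloid commitment goes with greater use of it.

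Promoters of some of the regulators match the binding motif of another regulator or of their own, which is why the following stretches are shown. In RefSeq promoters of GRCm38.p6, from 250 bases before to 50 after each start, 9 of the 10 regulators had an entry. The NRF1 core GCGCANGC, searched on both strands, was present in the promoters of *Polrmt* (3 matches), *Esrra* (3 matches) and *Tfb2m* (1 match), and in 9.95% of the 32851 promoters in that table. The GABP core CCGGAAG, also on both strands, was present in those of *Polrmt*, *Gabpa* and *Tfam*, and in 8.86% of all. Each stretch is read 5′ to 3′ on the strand of its gene with 9 bases on each side of the match, and capitals mark the match, which reads as the reverse complement where the motif lies on the other strand.
Polrmt, NRF1 core at -133, chr10:79746698-79746723, minus strand: agtatttctGCGCATGCtctcttgcc
Polrmt, NRF1 core at -4, chr10:79746569-79746594, minus strand: gcaggcggcGCGTGCGCgtgcgcact
Polrmt, GABP core at -43, chr10:79746609-79746633, minus strand: ctaagagcgCTTCCGGcagtcgcag
Tfb2m, NRF1 core at 14, chr1:179546247-179546272, minus strand: aggtcgttcGCATGCGCcattcgtaa
Esrra, NRF1 core at -141, chr19:6921933-6921958, minus strand: caggaggccGCGCACGCgtgtgtatc
Gabpa, GABP core at -93, chr16:84835022-84835046, plus strand: gggtaagtgCTTCCGGgtccctcag
Tfam, GABP core at -47, chr10:71238076-71238100, minus strand: tgccgcggaCCGGAAGtccgggctt

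Positions count from the RefSeq start, and the *Polrmt* match at -4 overlaps a further NRF1 core at 3. In *Esrra* the other NRF1 cores began at -34 and -30 and also overlap each other. *Polrmt* was the only 1 of the 9 regulators whose window held both motifs. The YY1 core ATGGCGGC (2.24% of all promoters) and the ERR core AAGGTCA (4.72%) were in none of these windows. The window of *Pprc1* had no match to these motifs, and its RefSeq start lies inside the gene as GENCODE vM21 draws it. These are matches of letters and were not tested for binding.

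Libraries held from 3647318 to 5965155 counts on genes. The 5 CMP libraries with a *Spehd* shRNA (4918631 to 5965155) were all deeper than the 4 with *Renilla* shRNA (3857980 to 4314959). The cell types were set against marker lists. The summed level of 8 LSK markers was higher in every LSK library (1442 to 2378 CPM, counts scaled to the TMM-adjusted library total) than in every CMP library (989 to 1352 CPM). The 8 CMP markers did not stand higher in CMPs. Their summed level was 1370 to 2092 CPM in CMP and 1868 to 2445 CPM in LSK libraries. Of these 8 genes *Gata1*, the erythroid and megakaryocyte factor, was higher in CMPs (253 to 312 CPM against 58.9 to 125 CPM), whereas the granulocyte enzyme gene *Elane* was at 29.0 to 57.2 CPM in CMPs and 105 to 176 CPM in LSK cells. Libraries also differed in transcripts of other cell types. The summed level of 8 B and T cell markers was 188 to 196 CPM in the CMP libraries with sh20, 23.9 to 39.1 CPM with sh10 and 64.6 to 127 CPM with *Renilla* shRNA. *Cd3e*, part of the T cell receptor complex, had 68 to 199 counts with sh20, 0 to 5 with sh10 and 35 to 67 with *Renilla* shRNA, and *Ms4a1* was at 0 in both sh20 libraries. The 7 mature neutrophil markers reached 277 CPM in LSK cells with sh10 and 293 CPM with *Renilla* shRNA, and at most 10.7 CPM in any other group.

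The regulators covered a wide span of levels. Per exonic kilobase (RPKM, mean ± SD over the 19 libraries), *Pprc1* was at 42.5 ± 10.9, *Polrmt* at 28.1 ± 5.99, *Tfam* at 23.4 ± 3.21 and *Gabpa* at 22.2 ± 5.65. *Nrf1* followed at 16.5 ± 2.32, *Yy1* at 9.19 ± 1.60, *Ppargc1b* at 7.17 ± 2.61, *Esrra* at 6.04 ± 1.88 and *Tfb2m* at 3.58 ± 0.758. *Ppargc1a*, the coactivator best known from muscle and brown fat, was at 0.258 ± 0.353. Of the 3 PGC-1 family members *Pprc1* had the highest level per length in these progenitors. *Pprc1* was above *Polrmt* in 18 of 19 libraries, *Nrf1* above *Yy1* in 19 and *Tfb2m* above *Ppargc1a* in 19. The order of *Tfam* and *Gabpa* held in 9 of 19 libraries, that of *Ppargc1b* and *Esrra* in 13, and that of *Yy1* and *Ppargc1b* in 14, so these neighbours were not separated beyond the spread between libraries.

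**Figure D1:**
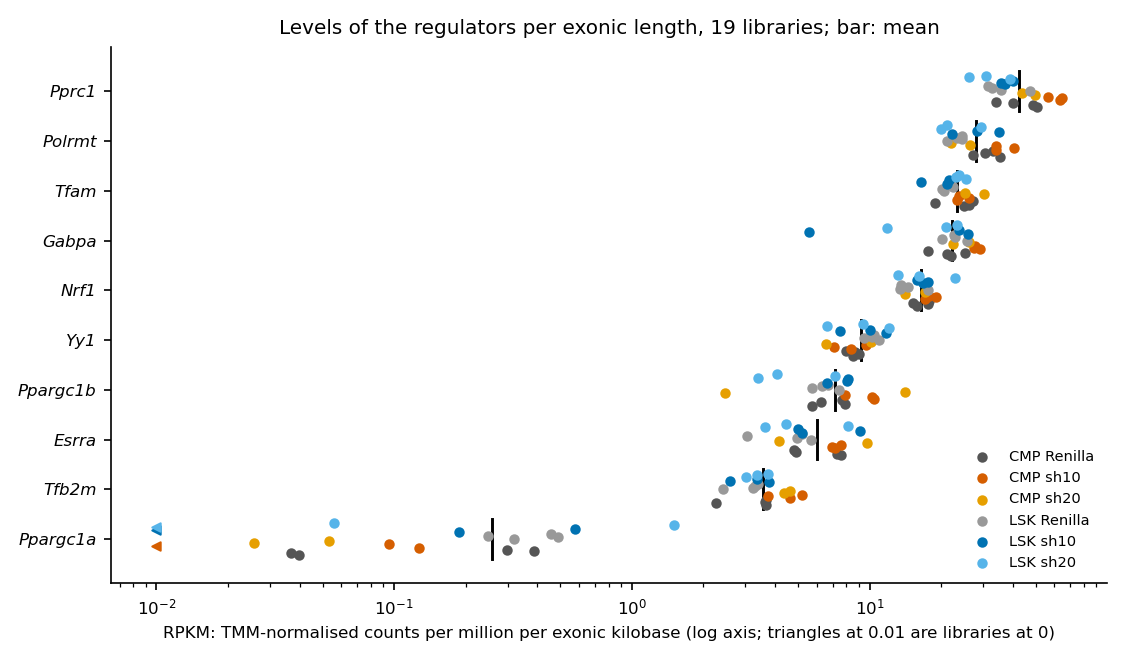
Level of each regulator per exonic length, as RPKM on a log axis, with 1 point per library coloured by group and a bar for the mean of the 19 libraries. *Pprc1* leads at a mean of 42.5 and *Ppargc1a* stands apart at 0.258, with triangles at the left edge for its 3 libraries at 0.

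The knockdown was compared with *Renilla* shRNA within CMPs, with both *Spehd* shRNAs as 1 group of 5 libraries against 4. None of the 9 regulators tested passed the quasi-likelihood test of edgeR (p-values adjusted by Benjamini and Hochberg's method), where 0.116% of all 12912 genes did. At an unadjusted p under 0.05 there were 2 regulators (*Pprc1* and *Gabpa*) and 2149 of all genes, and DESeq2 called 0 regulators and 882 genes. The median log2 fold change of the 9 was 0.22, with 7 above 0, beside 0.02 over all genes tested. In LSK cells, with 6 libraries against 4, edgeR called 0 of 10 regulators and 0% of 13441 genes, with 0 regulators and 492 genes at an unadjusted p under 0.05 and none by DESeq2. The median of the 10 was 0.01, with 5 above 0. The CMP and LSK comparisons have no library in common, whereas all comparisons with *Renilla* shRNA within a cell type share the same 4 controls. In sorted populations, fewer cells of a type and less RNA per cell cannot be told apart.

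**Figure D2:**
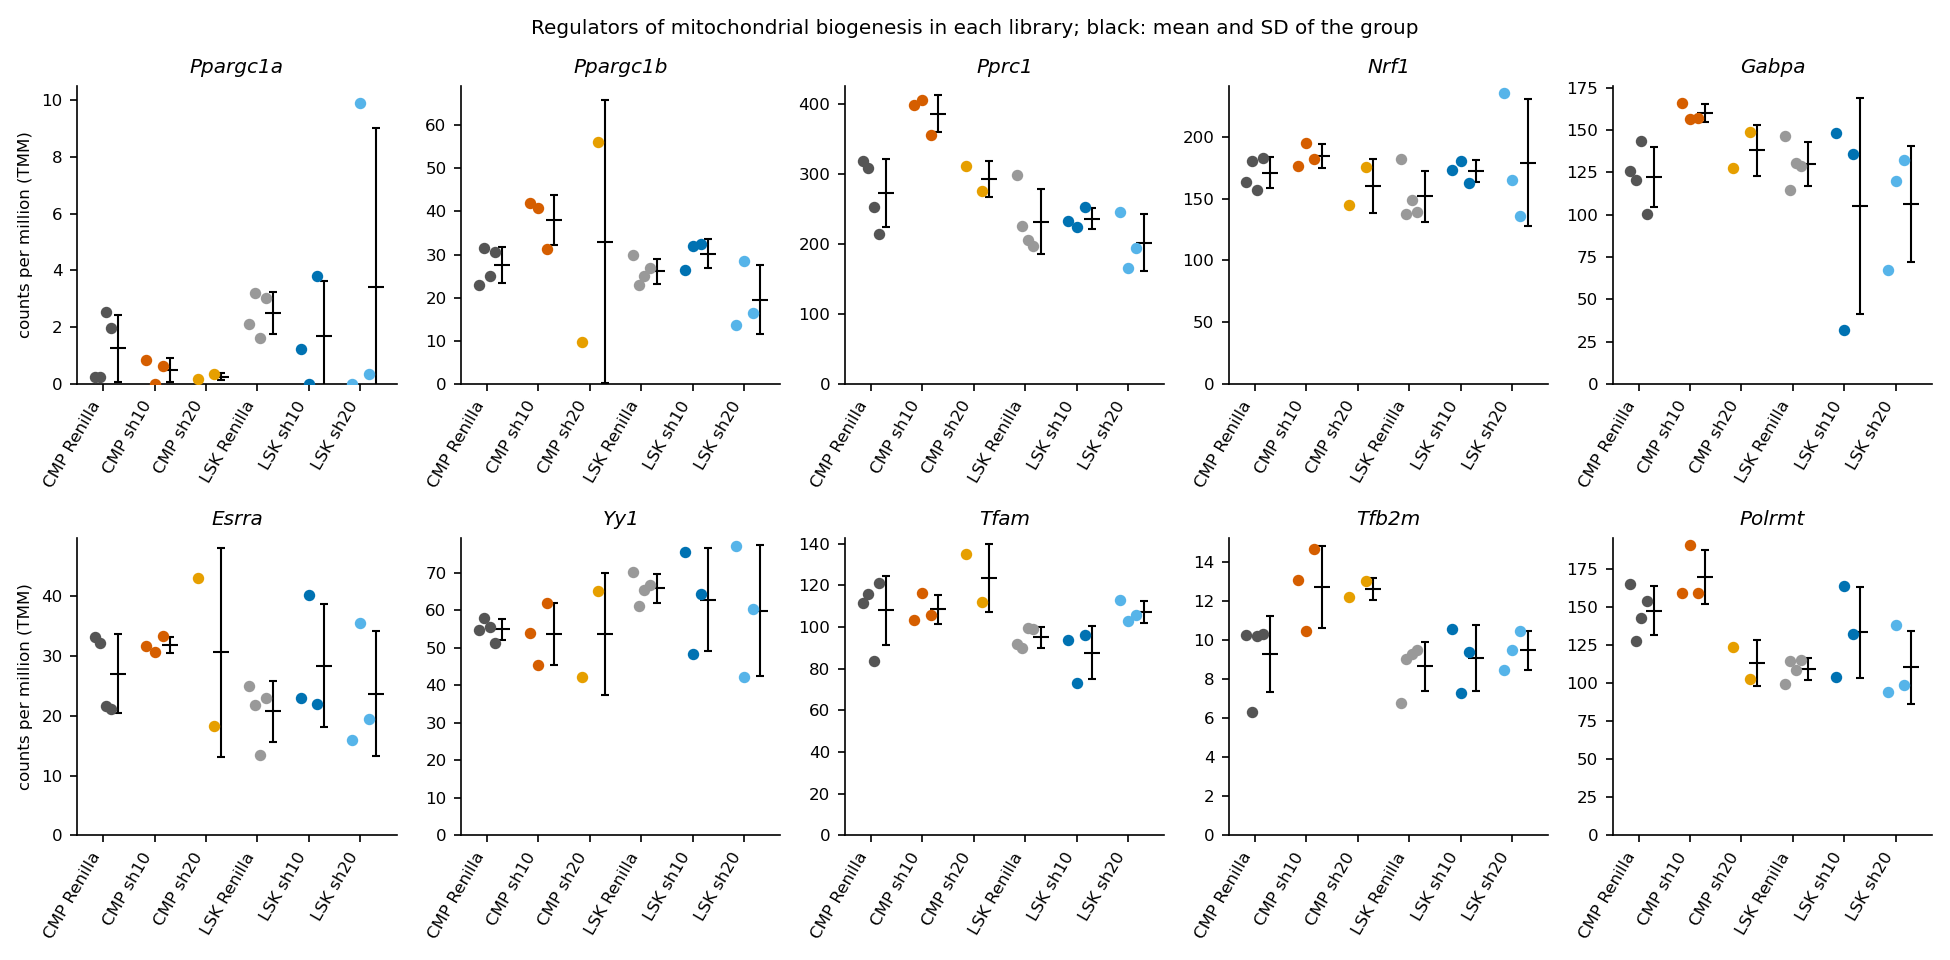
Level of each of the 10 regulators as CPM, 1 point per library in the 6 groups, with the mean and SD of each group in black (error bars end at 0). *Pprc1*, *Gabpa* and *Polrmt* are highest on average in CMPs with sh10, and *Gabpa* in LSK cells with sh10 has 1 library far below the others, at 31.8 CPM.

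Of the coactivators, *Ppargc1a* (ENSMUSG00000029167.13, chr5:51454250-51567726, minus strand) was at the limit of detection. It had 4, 0 and 3 counts in the CMP libraries with sh10, 1 and 2 with sh20, and 1, 1, 11 and 8 with *Renilla* shRNA. In LSK cells it had 7, 0 and 21 counts with sh10, 0, 46 and 2 with sh20, and 10, 16, 6 and 14 with *Renilla* shRNA. A count of 0 allows up to 3 counts. Every group mean of this gene rested on low counts, and the 46 counts of LSK sh20 replicate B were the highest of the 19 libraries. The gene did not pass the filter on low counts in CMPs. In LSK cells the log2 fold change with both shRNAs was -0.01 with a 95% interval from -2.36 to 2.35, so a change of up to several-fold in either direction was not detectable at this depth.

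*Ppargc1b* (ENSMUSG00000033871.14, on chromosome 18), which also coactivates ERR receptors, was well above that level. In CMPs it was at 41.9, 40.8 and 31.3 CPM with sh10, at 9.83 and 56.2 CPM with sh20 and at 22.9, 31.4, 25.1 and 30.7 CPM with *Renilla* shRNA. The sh20 libraries thus held both the lowest and the highest value of all 19 libraries, from 58 and 320 counts, and the groups overlapped. The log2 fold change with both shRNAs was 0.39 (SE 0.39, edgeR adjusted p = 0.688), and with sh20 alone it was 0.28 with a 95% interval from -0.86 to 1.41. That value turned to -1.46 without CMP sh20 replicate C and rose to 1.04 without replicate B, and either fit leaves the sh20 arm without a replicate. In LSK cells *Ppargc1b* was at 26.4, 31.9 and 32.3 CPM with sh10, 13.6, 28.6 and 16.4 CPM with sh20 and 22.9 to 29.8 CPM with *Renilla* shRNA. Its log2 fold change between sh20 and sh10 in LSK cells was -0.67 (SE 0.28, unadjusted p = 0.0380, adjusted p = 0.504), the only regulator under an unadjusted 0.05 there, and did not pass.

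*Pprc1* (ENSMUSG00000055491.14, chr19:46044886-46072915, plus strand), the PGC-1-related coactivator that responds to growth signals, was highest in the CMP libraries with sh10. In CMPs it was at 398, 404 and 355 CPM with sh10, 311 and 275 CPM with sh20 and 318, 308, 252 and 214 CPM with *Renilla* shRNA. All 3 sh10 libraries lay above all CMP controls, as for 12.3% of all genes, while the sh20 libraries fell within the range of the controls. They also lay above every other library of the series, for which the share of all genes was not computed. In LSK cells *Pprc1* was at 233, 224 and 252 CPM with sh10, 245, 165 and 194 CPM with sh20 and 298, 225, 205 and 197 CPM with *Renilla* shRNA, with all groups overlapping. Its log2 fold change in CMPs was 0.50 with sh10 (SE 0.13, 41.2% higher, edgeR adjusted p = 0.0705), which did not pass. With sh20 it was 0.12 (SE 0.14), which turned to -0.19 with log2 total counts in a fit of all 19 libraries. With both shRNAs it was 0.35 in CMPs (SE 0.14, adjusted p = 0.234) and -0.09 in LSK cells (SE 0.15). The difference of these effects between cell types was 0.39 (SE 0.19, adjusted p = 0.503). DESeq2 called *Pprc1* higher in CMPs with sh10, at 0.50. In that comparison, in which *Gabpa* was tested too, 4 of 5 B and T cell markers tested (median log2 fold change of the 5 at -4.42) and 1 of 8 LSK markers were lower with sh10, and their part was not tested. An exon of *Pprc1* overlaps one of *Ldb1* on the opposite strand, and *Ldb1* (839 to 1208 counts) was called in none of the comparisons.

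Of the DNA-bound factors, *Nrf1* (ENSMUSG00000058440.14, chr6:30047988-30153458, plus strand) moved little in CMPs. This is nuclear respiratory factor 1, not the stress factor *Nfe2l1* that shares the name. It was at 176 to 195 CPM with sh10, 145 and 176 CPM with sh20 and 157 to 183 CPM with *Renilla* shRNA, and the log2 fold change with both shRNAs was 0.03, with a 95% interval from -0.16 to 0.23. In LSK cells it was at 163 to 180 CPM with sh10, 136 to 236 CPM with sh20 and 138 to 182 CPM with *Renilla* shRNA, and the log2 fold change was 0.20 (SE 0.14, adjusted p = 0.998). The interval in CMPs makes *Nrf1* the regulator whose knockdown effect was measured most tightly.

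*Gabpa* (ENSMUSG00000008976.16, chr16:84834925-84863779, plus strand) encodes the DNA-binding subunit of GABP. In CMPs it was at 166, 157 and 157 CPM with sh10, 127 and 149 CPM with sh20 and 126, 120, 143 and 100.4 CPM with *Renilla* shRNA. The 3 sh10 libraries lay above all controls, as for 12.3% of all genes, and the sh20 libraries overlapped the controls. The log2 fold change was 0.38 with sh10 (SE 0.12, edgeR adjusted p = 0.111), 0.19 with sh20 (SE 0.13) and 0.30 with both (SE 0.11, adjusted p = 0.205), none of which passed, and DESeq2 called the sh10 value, at 0.39. Total counts were higher in all CMP libraries with a *Spehd* shRNA than in the controls. When log2 total counts entered a fit of all 19 libraries, the value with both shRNAs turned to -0.22. In LSK cells *Gabpa* was at 148, 31.8 and 135 CPM with sh10, 67.4, 119.8 and 132 CPM with sh20 and 146, 114, 131 and 129 CPM with *Renilla* shRNA. The second sh10 library, with 166 counts, and the first sh20 library lay below every control, so the log2 fold change of -0.31 with both shRNAs had an SE of 0.33. Without LSK sh10 replicate B the value with sh10 went from -0.30 to 0.12. *Gabpa* overlaps exons of *Atp5j*, a subunit of the ATP synthase, on the opposite strand. *Atp5j* had 442 to 581 counts over the 19 libraries and was called in none of the comparisons.

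*Esrra* (ENSMUSG00000024955.14, chr19:6910977-6921813, minus strand), the orphan nuclear receptor that PGC-1 coactivators use on respiratory genes, had the highest median coefficient of variation within groups (30.4%) of the 9 regulators other than *Ppargc1a*. In CMPs it was at 31.6, 30.5 and 33.2 CPM with sh10, 42.9 and 18.3 CPM with sh20 and 33.2, 32.2, 21.6 and 21.1 CPM with *Renilla* shRNA. The sh20 values were again on either side of all other CMP libraries, in the opposite order to those of *Ppargc1b*. The log2 fold change with both shRNAs was 0.22 in CMPs (SE 0.26) and 0.32 in LSK cells (SE 0.30, adjusted p = 0.998), and in LSK cells with sh10 it was 0.46 (SE 0.35). The groups overlapped in each comparison, and neither cell type showed a difference beyond the spread between libraries. Exons of *Esrra* overlap *Trmt112*, a methyltransferase cofactor, on the opposite strand. *Trmt112* (135 to 259 counts) was called higher in control CMPs than in control LSK cells, at 0.41, a comparison in which *Esrra* did not pass.

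*Yy1* (ENSMUSG00000021264.12, chr12:108792973-108820148, plus strand), a zinc finger factor that recruits PGC-1α to respiratory genes, was at 45.4 to 62.0 CPM with sh10, 42.2 and 65.1 CPM with sh20 and 51.3 to 58.0 CPM in the controls, all in CMPs. In LSK cells it was at 48.4 to 75.6, 42.4 to 77.3 and 61.1 to 70.2 CPM. The range of each *Spehd* shRNA held the whole range of the controls in each cell type. With both shRNAs the log2 fold change was -0.03 in CMPs (SE 0.15) and -0.11 in LSK cells (SE 0.17, adjusted p = 0.998). A transcript of unknown kind, Gm34220 (22 to 86 counts), begins 230 bases from *Yy1* on the opposite strand.

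Of the factors inside mitochondria, *Tfam* (ENSMUSG00000003923.14, chr10:71225464-71238280, minus strand), which packages mitochondrial DNA and starts its transcription, was the steadiest, with a median coefficient of variation of 9.75% within groups. In CMPs it was at 103 to 116 CPM with sh10, 135 and 112 CPM with sh20 and 83.8 to 121 CPM with *Renilla* shRNA. In LSK cells it was at 93.8, 73.3 and 96.1 CPM with sh10, 113, 103 and 106 CPM with sh20 and 91.7, 90.0, 99.3 and 98.9 CPM with *Renilla* shRNA. All 3 LSK libraries with sh20 lay above all LSK libraries with sh10, as for 7.06% of all genes, and above all with *Renilla* shRNA, as for 6.29%, yet by a small amount. For sh20 in LSK cells the log2 fold change was 0.15 (SE 0.13, edgeR adjusted p = 0.843) against *Renilla* shRNA and 0.26 (SE 0.14, adjusted p = 0.621) against sh10, and neither passed. With both shRNAs it was 0.09 in CMPs (SE 0.12) and 0.03 in LSK cells (SE 0.12).

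*Tfb2m* (ENSMUSG00000026492.11, chr1:179528055-179546267, minus strand), the factor that melts mitochondrial promoters for the polymerase, was the only regulator whose CMP libraries separated with both shRNAs. It was at 13.04, 10.4 and 14.6 CPM with sh10, 12.2 and 12.99 CPM with sh20 and 10.3, 6.34, 10.2 and 10.3 CPM with *Renilla* shRNA. All 5 knockdown libraries were above all 4 controls, as for 2.88% of all genes (12.3% with sh10 alone and 12.1% with sh20 alone), but the nearest values, 10.4 and 10.3 CPM, were close and came from 52 and 42 counts. The log2 fold change was 0.45 with each shRNA (SE 0.28 with sh10 and 0.31 with sh20) and 0.45 with both (SE 0.26, edgeR adjusted p = 0.428), so it did not pass at these counts. In LSK cells *Tfb2m* was at 7.27 to 10.6, 8.48 to 10.5 and 6.76 to 9.50 CPM in the same order, and the log2 fold change was 0.09 (SE 0.24). *Cnst* begins 103 bases away on the opposite strand, and it was called in none of the comparisons.

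*Polrmt* (ENSMUSG00000020329.12, chr10:79736123-79746581, minus strand), the mitochondrial RNA polymerase, was the only regulator whose shRNAs differed from each other in a test. In CMPs it was at 159.6, 191 and 159.6 CPM with sh10, 124 and 103 CPM with sh20 and 166, 128, 143 and 154 CPM with *Renilla* shRNA. Both sh20 libraries were below every sh10 library, as for 23.8% of all genes, and below every control library, as for 17.6%, and the sh10 libraries overlapped the controls. For sh20 against sh10 the log2 fold change was -0.57 (SE 0.14, a change of -32.4%, edgeR adjusted p = 0.0456), which passed, as 6.41% of all genes did in that comparison. Against *Renilla* shRNA it was -0.37 with sh20 (SE 0.13, adjusted p = 0.131) and 0.20 with sh10 (SE 0.12, adjusted p = 0.365), so that the value with both shRNAs was -0.0044 (SE 0.16). The call between the shRNAs was lost without each of the 3 sh10 libraries in turn, without CMP sh20 replicate C (-0.61 to -0.43) and under 3 other alternatives, and DESeq2 kept it. In LSK cells *Polrmt* was at 105, 164 and 132 CPM with sh10, 94.1, 138 and 99.0 CPM with sh20 and 99.5, 115, 109 and 115 CPM with *Renilla* shRNA. There the log2 fold change was 0.30 with sh10 (SE 0.18), 0.15 with both (SE 0.17) and -0.31 for sh20 against sh10 (SE 0.20, adjusted p = 0.702).

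The CMP libraries that differ in *Polrmt* also differ in markers of other cells. Between sh20 and sh10 in CMPs, 4 of 5 B and T cell markers tested and 1 of 5 macrophage markers were higher with sh20. The macrophage list was at 204 to 265 CPM with sh20, 77.7 to 88.4 CPM with sh10 and 33.4 to 219 CPM with *Renilla* shRNA, and *Marco* was at 0 with both *Spehd* shRNAs. The CMP list itself was at 1370 to 1563 CPM with sh20 and 1930 to 2092 CPM with sh10. The part of these differences in the values of *Polrmt* was not tested.

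Each shRNA was also tested on its own. With sh10 in CMPs edgeR called 0 of 9 regulators, where 1.97% of all genes passed. There were 2 regulators and 2926 genes at an unadjusted p under 0.05, and DESeq2 called 2 regulators (*Pprc1* and *Gabpa*) and 1209 genes. With sh20 in CMPs it called 0 of 9, where 6.17% of all genes passed, with 1 regulator and 3395 genes at an unadjusted p under 0.05 and 0 regulators and 1709 genes by DESeq2. In LSK cells edgeR called 0 of 10 regulators and 0% of genes with sh10, with sh20 and between the shRNAs. The unadjusted counts there were 0 regulators and 457 genes, 0 and 1152, and 1 and 1268, and DESeq2 called 0 regulators and 3, 195 and 256 genes. The test of whether the mean shRNA effect differed between CMP and LSK cells called 0 of 10 regulators and 0.0531% of genes. There were 0 regulators and 1518 genes at an unadjusted p under 0.05, and DESeq2 called 0 regulators and 97 genes. The highest value there was 0.57 for *Gabpa* (SE 0.41, adjusted p = 0.623).

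Between sh20 and sh10 in CMPs, all sh20 values lay below all sh10 values for 4 of 9 regulators, as for 23.8% of all genes. Besides *Polrmt* these were *Pprc1* (-0.38, SE 0.15, adjusted p = 0.151), *Gabpa* (-0.20, SE 0.14, adjusted p = 0.414) and *Nrf1* (-0.19, SE 0.10, adjusted p = 0.287), and none passed. The median of the 9 regulators was -0.19 beside 0.0049 over all genes, with 6 of 9 below 0. *Tfam* went the other way, as sh20 replicate B had its highest level of the 19 libraries (135 CPM), and its groups overlapped.

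**Figure D3:**
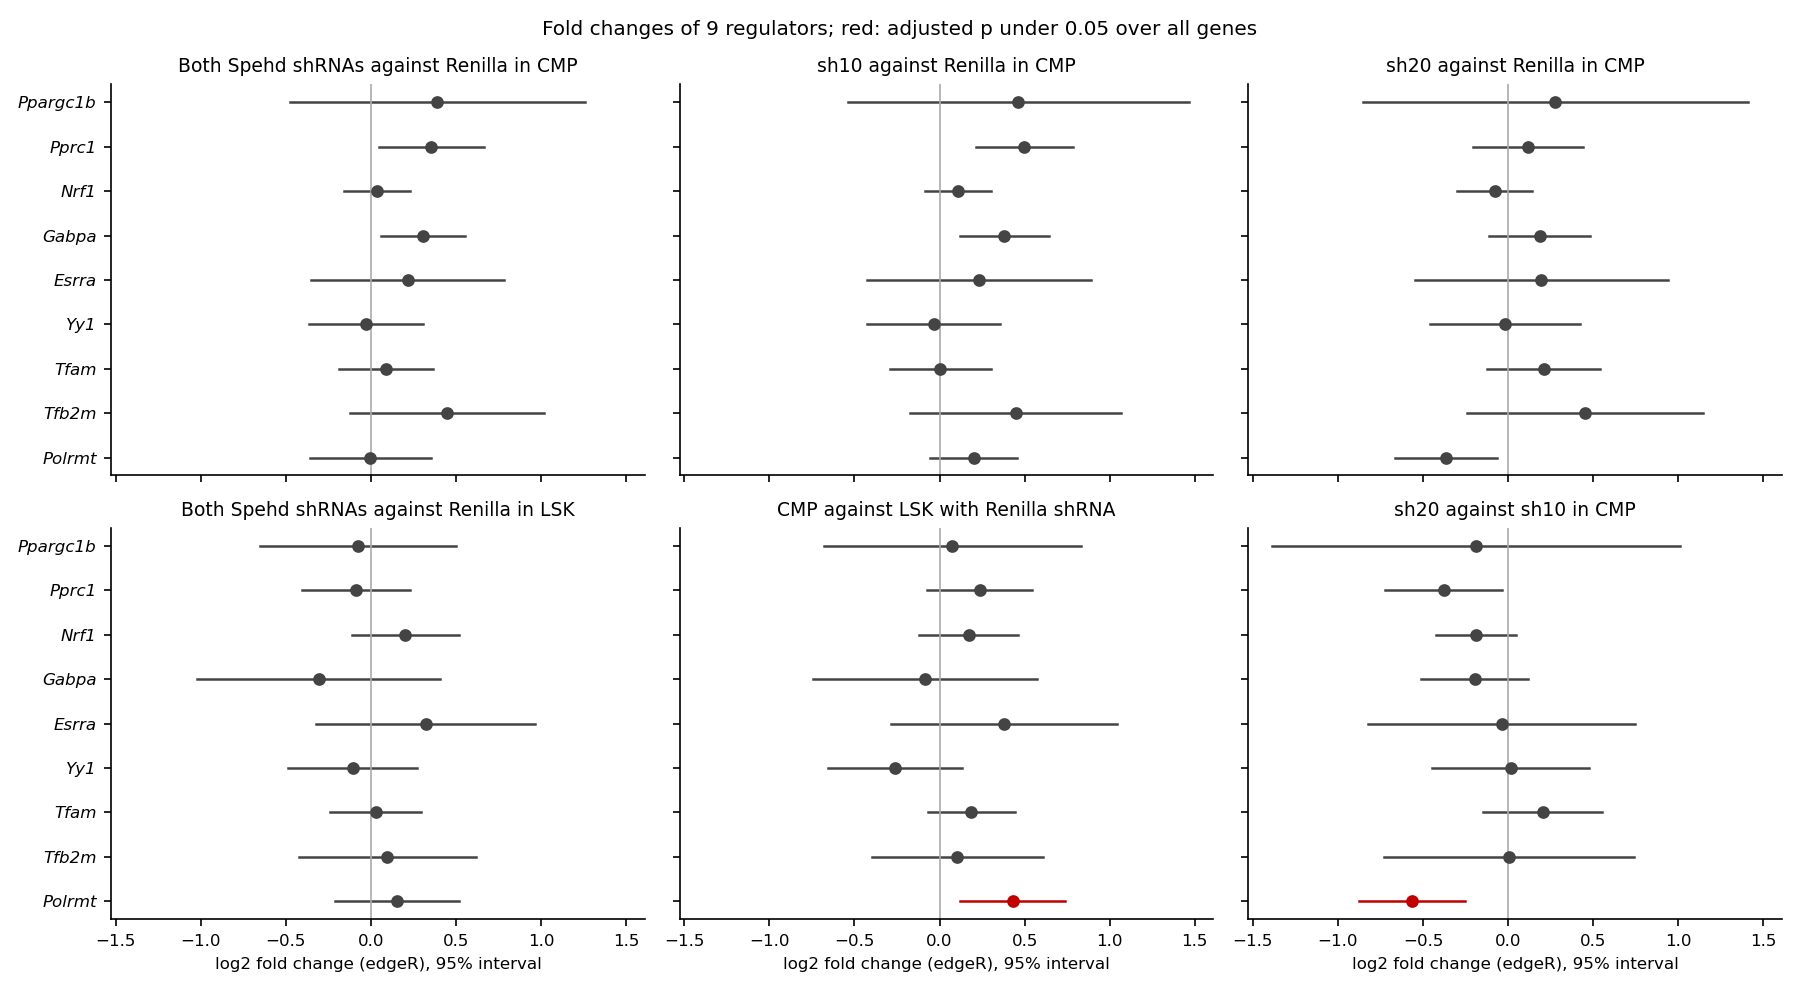
Log2 fold changes of 9 regulators (*Ppargc1a* is not shown) with 95% intervals in 6 comparisons, in red where the edgeR adjusted p over all genes was under 0.05. *Polrmt* is red for sh20 against sh10 in CMPs (-0.57) and for CMP against LSK with *Renilla* shRNA (0.43), and no regulator is red where both shRNAs are set against *Renilla* shRNA.

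CMP and LSK cells were compared within each shRNA, in a fit of all 19 libraries. With *Renilla* shRNA *Polrmt* was higher in CMPs, by 0.43 on the log2 scale (SE 0.15, a rise of 34.7%, edgeR adjusted p = 0.0467). It was at 128 to 166 CPM in the 4 CMP libraries and 99.5 to 115 CPM in the 4 LSK libraries, with no overlap, as for 16.4% of all genes in that direction. It was the only 1 of 10 regulators to pass, where 19.8% of all genes did. DESeq2 kept the call, and it was lost without any 1 of the 8 control libraries (0.39 to 0.50) and under 5 other alternatives. With sh10 the *Polrmt* difference was 0.35 (SE 0.17, adjusted p = 0.172) and with sh20 it was 0.04 (SE 0.19, adjusted p = 0.924), and the groups overlapped in both.

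*Pprc1* was higher in CMPs with sh10, by 0.71 on the log2 scale (SE 0.17, a rise of 63.4%, edgeR adjusted p = 0.00798), where 16.1% of all genes passed. Its 3 CMP libraries (355 to 404 CPM) were all above its 3 LSK libraries (224 to 252 CPM), as for 19.4% of all genes, and the call held without each of these 6 libraries (0.67 to 0.76). With sh20 the difference was 0.54 (SE 0.19, adjusted p = 0.0605), again without overlap (18.1% of all genes in that direction), and with *Renilla* shRNA it was 0.24 (SE 0.15, adjusted p = 0.280), with overlap. So the coactivator was higher on average in CMPs than in LSK cells under every shRNA, while the difference passed in 1 of the 3. With sh20 edgeR called 0 of 10 regulators, where 14.6% of all genes passed. There were 1 regulator and 4418 genes at an unadjusted p under 0.05, and DESeq2 called 1 regulator (*Pprc1*) and 2886 genes.

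No other regulator passed between the cell types. *Yy1* was lower in all 4 CMP libraries with *Renilla* shRNA (51.3 to 58.0 CPM) than in all 4 LSK libraries (61.1 to 70.2 CPM), as 14.7% of all genes were, at -0.26 (SE 0.19, edgeR adjusted p = 0.361). *Gabpa* (0.60, SE 0.36, adjusted p = 0.280) and *Tfam* (0.31, SE 0.14, adjusted p = 0.150) were higher in all CMP libraries with sh10 than in all LSK libraries with sh10, as 19.4% of all genes were, and neither passed. *Tfb2m* with sh20 was at 0.41 (SE 0.30), also without overlap, as for 18.1% of all genes. *Ppargc1b* with sh20 was at 0.76 with a larger error (SE 0.45, adjusted p = 0.284), its groups overlapped, and the value turned to -0.98 without CMP sh20 replicate C and rose to 1.54 without replicate B. With *Renilla* shRNA the values of *Esrra* (0.38, SE 0.32), *Tfam* (0.19, SE 0.12), *Nrf1* (0.17, SE 0.14), *Tfb2m* (0.10, SE 0.24), *Ppargc1b* (0.07, SE 0.36), *Gabpa* (-0.09, SE 0.31) and *Ppargc1a* (-0.97, SE 1.23) all came with overlapping groups. The median of the 10 regulators was 0.14 with *Renilla* shRNA, 0.32 with sh10 and 0.29 with sh20, beside -0.02, 0.01 and -0.02 over all genes. LSK markers were lower in CMPs with each shRNA (6 of 8 with *Renilla* shRNA). With *Renilla* shRNA 5 of 6 mature neutrophil, 3 of 5 macrophage and 1 of 3 marrow stroma markers tested were lower in CMPs. In that comparison 4 of 7 B and T cell and 3 of 6 red cell markers tested were higher, and of 8 CMP markers 1 was higher and 5 lower. With sh10, where *Pprc1* passed, 4 of 6 neutrophil markers, 3 of 5 macrophage markers and 1 of 7 B and T cell markers were lower. With sh20 5 of 7 B and T cell markers tested were higher in CMPs (median log2 fold change of the 7 at 4.69). By the study's methods the marrow was depleted of lineage-positive cells before the sort. The part of these markers in the differences above was not tested.

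Genes that work with the regulators were described from lists. Of 25 genes known as nuclear targets of NRF1 or GABP, mostly subunits of the respiratory chain, edgeR called 9 lower and 1 higher in CMPs with sh20 against *Renilla* shRNA, with a median log2 fold change of -0.38, where 6.17% of all genes passed. The 3 largest of those lower were the cytochrome oxidase subunits *Cox4i1* (-0.47, SE 0.09, adjusted p = 0.0189) and *Cox6a1* (-0.45, SE 0.11, adjusted p = 0.0470), and the ATP synthase subunit *Atp5b* (-0.43, SE 0.06, adjusted p = 0.00930). *Alas1*, the first enzyme of haem synthesis, was the 1 that rose (0.43, SE 0.10, adjusted p = 0.0343). With log2 total counts in a fit of all 19 libraries, 20 genes of the whole table were called in this comparison. That fit without total counts called 609 genes, and the fit of the CMP libraries 853. With sh10 only *Atp5b* was called lower (-0.24, SE 0.05, adjusted p = 0.0451), where 1.97% of all genes passed, and the median was -0.22. The 272 genes of the whole table called with sh10 became 9 without CMP sh10 replicate B. The fit of all 19 libraries called 145 with sh10, and 1 with log2 total counts added. With both shRNAs 0 of 25 passed, although 22 were below 0 in CMPs (median -0.30) and 22 in LSK cells (median -0.10). In these comparisons the median of the regulators themselves was above 0, at 0.22 in CMPs and 0.01 in LSK cells.

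Mitochondrially encoded transcripts of the chain are what the POLRMT, TFAM and TFB2M proteins produce. Of 13 such genes 7 could be tested in CMPs. With sh20 3 of these were lower than with *Renilla* shRNA, namely *mt-Cytb* (-0.45, SE 0.06, adjusted p = 0.00930), *mt-Nd1* (-0.40, SE 0.07, adjusted p = 0.0118) and *mt-Co1* (-0.37, SE 0.08, adjusted p = 0.0313). Their sh10 values did not pass, and the list's median was -0.23 with sh20 and -0.22 with sh10. In a fit of all 19 libraries sh20 against *Renilla* shRNA in CMPs called 609 genes of the whole table, and 20 with log2 total counts added. Beside the counts with sh20, where 6.17% of all genes passed, stand the levels of B and T cell and of macrophage markers given above. Their part was not tested.

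Other factors of mitochondrial DNA upkeep changed in few cases. Of 19 such genes none passed with either shRNA against *Renilla* shRNA in CMPs or LSK cells. Between sh20 and sh10 in CMPs *Twnk*, the mitochondrial DNA helicase, was lower (-0.75, SE 0.15, adjusted p = 0.0258), 1 of 19 where 6.41% of all genes passed. CMPs with *Renilla* shRNA had more *Lonp1*, the matrix protease that degrades TFAM (0.48, SE 0.12, adjusted p = 0.0107), than LSK cells, 1 of 19 where 19.8% of all genes passed. With sh10 the DNA ligase *Lig3* (0.59, SE 0.18, adjusted p = 0.0369) and the mitochondrial DNA polymerase *Polg* (0.43, SE 0.13, adjusted p = 0.0261) were higher in CMPs, 2 of 19 where 16.1% of all genes passed. These shares are near or below those of all genes.

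Of 27 partners and upstream regulators, 23 could be tested in CMPs per shRNA. With sh20 the growth kinase gene *Mtor* was higher than with *Renilla* shRNA (0.73, SE 0.18, adjusted p = 0.0470), and *Myc*, which also drives mitochondrial genes, was lower (-0.42, SE 0.07, adjusted p = 0.00993), 2 of 23 where 6.17% of all genes passed. Between sh20 and sh10, *Creb1*, an activator of *Ppargc1a*, was lower (-0.59, SE 0.12, adjusted p = 0.0238), as was the acetyltransferase gene *Kat2a* (-0.33, SE 0.08, adjusted p = 0.0451), 2 of 23 where 6.41% of all genes passed. Both shares are near those of all genes, and without CMP sh10 replicate B the 886 genes of the whole table called between sh20 and sh10 became 84. For sh20 against *Renilla* shRNA a fit of all 19 libraries called 609 genes, and 20 with log2 total counts added. None of these partners passed with sh10 against *Renilla* shRNA or in LSK cells. Between CMPs and LSK cells with *Renilla* shRNA 3 rose and 3 fell, among them *Prkab1*, an AMPK subunit (0.56, SE 0.11, adjusted p = 0.00195), and *Gabpb1*, the partner subunit of GABPA (-0.51, SE 0.14, adjusted p = 0.0188). With sh10 3 rose and 1 fell. The 3 largest were *Sirt3*, the mitochondrial deacetylase (-0.76, SE 0.13, adjusted p = 0.000741), *Hcfc1*, a cofactor of GABP and of PGC-1-related coactivator (0.75, SE 0.22, adjusted p = 0.0274), and the antioxidant factor *Nfe2l2* (0.70, SE 0.17, adjusted p = 0.00945). With sh20 1 rose and 2 fell, with *Crtc2* at -0.60 (SE 0.14), *Sirt3* at -0.52 (SE 0.15) and *Prkab1* at 0.47 (SE 0.14). These counts, of 24 tested, are close to the shares of all genes called in the same comparisons (19.8% with *Renilla* shRNA, 16.1% with sh10 and 14.6% with sh20).

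Protein import and mitochondrial RNA processing were read against the 19.8% of all genes called between the cell types with *Renilla* shRNA, 16.1% with sh10 and 14.6% with sh20. Of 29 import genes 18 were higher and 0 lower in CMPs with *Renilla* shRNA, with a median of 0.45, led by the chaperonin *Hspe1* (0.90, SE 0.14), the small import chaperone *Timm10* (0.87, SE 0.17) and the outer membrane subunit *Tomm5* (0.78, SE 0.17). With sh10 7 were higher and with sh20 1, a share below that of all genes. Of 17 RNA processing genes 3 were higher with *Renilla* shRNA, a share close to that of all genes, namely *Rexo2* (0.70, SE 0.09), *Fastkd2* (0.57, SE 0.18) and *Elac2* (0.52, SE 0.13). With sh10 6 were higher, led by *Pnpt1* (1.01, SE 0.32), *Lrpprc* (1.01, SE 0.24) and *Fastkd2* (0.94, SE 0.20), and with sh20 4, led by *Fastkd5* (1.82, SE 0.40). *Pnpt1* and *Rexo2* encode nucleases, *Elac2* trims tRNA ends, and *Lrpprc* and the FASTK proteins steady mitochondrial mRNAs. Of the NRF1 or GABP targets 9 were higher and *Alas1* lower (-0.68, SE 0.11) in CMPs with *Renilla* shRNA, 2 were higher and 1 lower with sh10, and 1 was higher and 1 lower with sh20. In the knockdown comparisons the import list went below 0 in CMPs, with a median of -0.18 with both shRNAs and 4 of 29 genes lower with sh20, where 6.17% of all genes passed, among them *Tomm40* (-0.36, SE 0.07), *Hspd1* (-0.36, SE 0.08) and *Timm50* (-0.31, SE 0.08). In that comparison 1 of 5 macrophage and 0 of 5 B and T cell markers tested were higher with sh20, and their part was not tested. A fit of all 19 libraries called 609 genes of the whole table there, and 20 with log2 total counts added. In the knockdown comparisons in LSK cells edgeR called no gene of these lists.

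**Figure D4:**
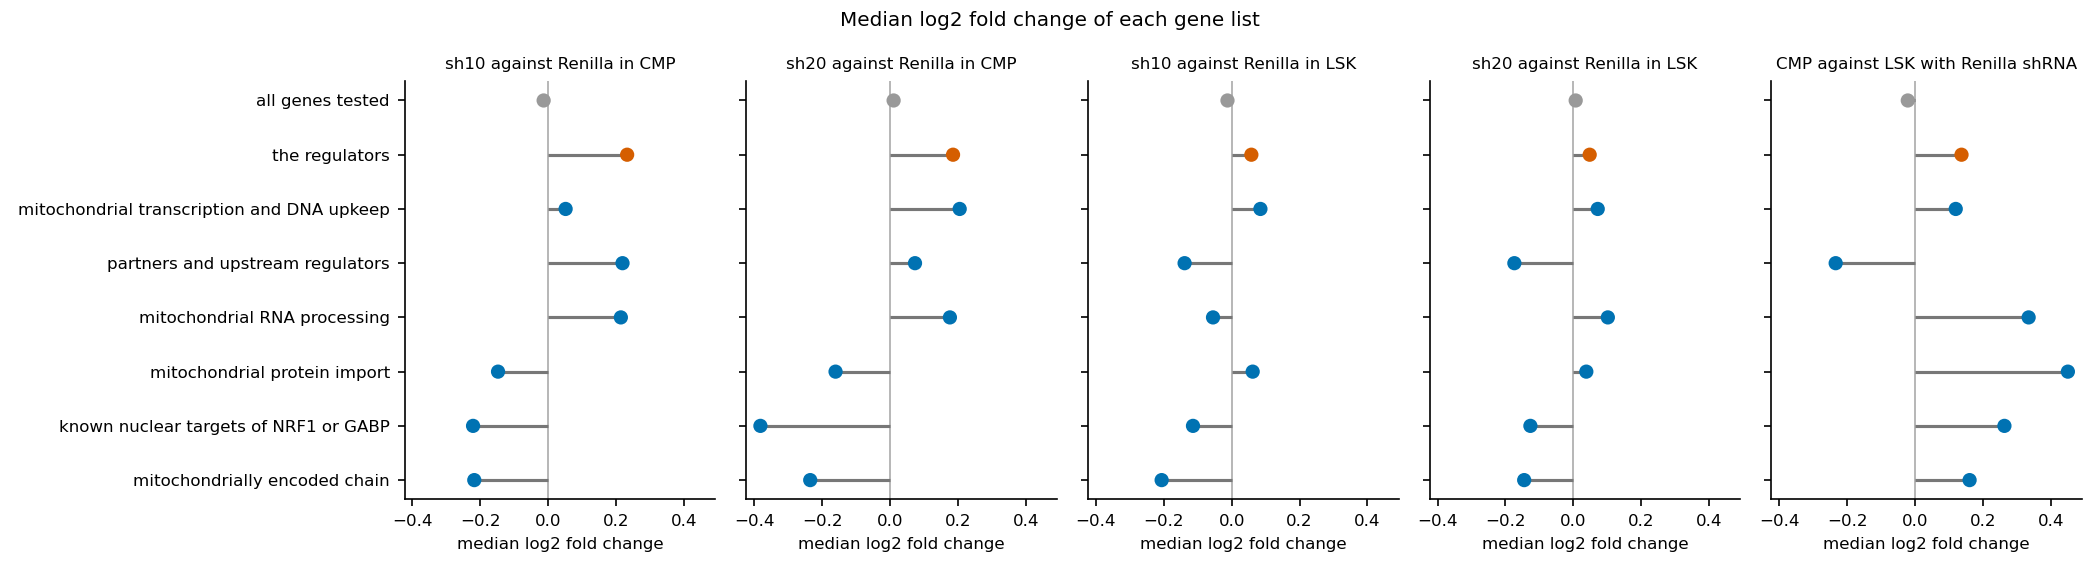
Median log2 fold change (edgeR) of the regulators, of each pathway list and of all genes tested, in 5 comparisons. In CMPs with sh20 against *Renilla* shRNA the regulators stand at 0.19, the NRF1 or GABP targets at -0.38 and all genes at 0.01.

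Whether regulators vary together was examined within the groups, as log2 CPM minus the mean of the group, in all 36 pairs of the 9 regulators other than *Ppargc1a*. Of these, 17 correlated above 0 and 19 below over the 19 libraries, with a median r of -0.04. After Benjamini-Hochberg adjustment over the 36 pairs, 1 passed a permutation test with 100000 permutations within groups. It was *Yy1* and *Polrmt*, with Pearson's r = -0.883 (permutation p = 0.000200, adjusted p = 0.00720) and Spearman's rho = -0.890 (permutation p = 0.000180, adjusted p = 0.00648). Without the 2 libraries farthest in *Yy1* r was -0.843, and it was -0.762 over the 9 CMP and -0.939 over the 10 LSK libraries. Replicate B of all 4 groups with a *Spehd* shRNA was the lowest of its group in *Yy1* and the highest in *Polrmt*. In LSK cells these were the sh20 (42.4 and 138 CPM) and sh10 libraries (48.4 and 164 CPM), and in CMPs the sh20 (42.2 and 124 CPM) and sh10 libraries (45.4 and 191 CPM). With *Renilla* shRNA in CMPs, replicate B was instead the highest in *Yy1* (58.0 CPM) and the lowest in *Polrmt* (128 CPM). With *Renilla* shRNA in LSK cells it was the lowest in *Yy1* (61.1 CPM), but replicate D was the highest in *Polrmt*. The part of the replicate letter in the correlation was not tested. LSK sh20 replicate A (77.3 and 94.1 CPM) lay at the other end. Both values come from the same library and its normalization, and a group of 2 libraries gives deviations that mirror each other. Within groups the level of *Polrmt* correlated with log2 total counts at r = -0.41 and that of *Yy1* at 0.28, as a description over 19 libraries, and their part was not tested. *Esrra* went with *Polrmt* at r = 0.58 (permutation p = 0.0605, adjusted p = 0.436) and against *Yy1* at r = -0.67 (permutation p = 0.0584, adjusted p = 0.436), and neither passed.

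**Figure D5:**
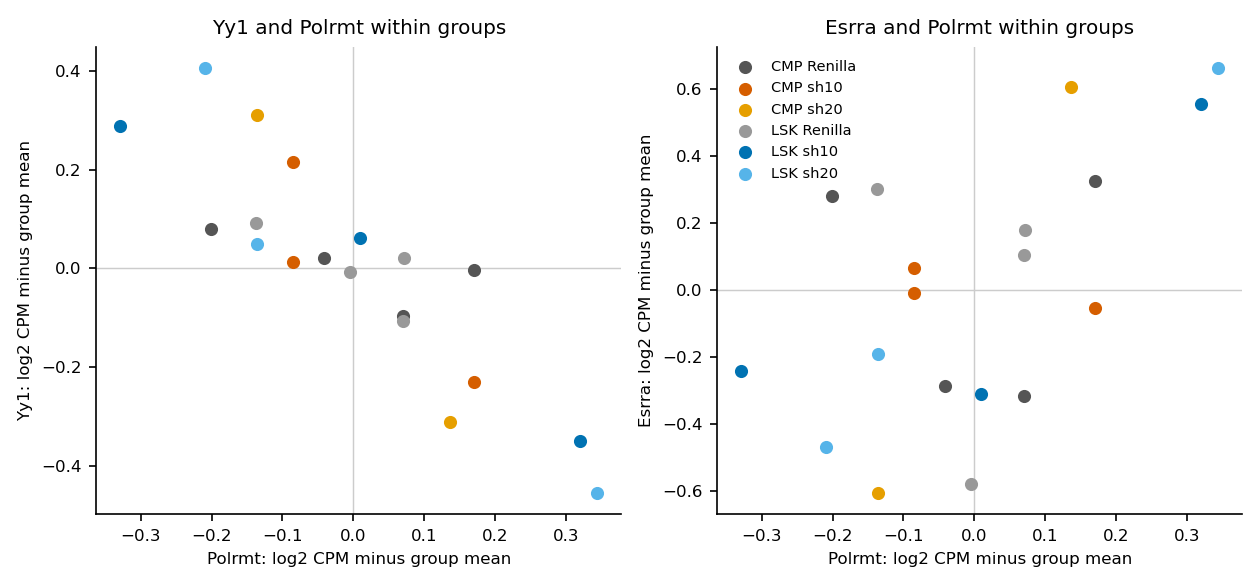
Deviation of *Polrmt* from its group mean against that of *Yy1* and of *Esrra*, in log2 CPM, with 1 point per library coloured by group. *Polrmt* falls as *Yy1* rises (r = -0.883) and is spread more loosely against *Esrra* (r = 0.58).

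For each regulator with a mean of at least 50 counts, the most similar of 10476 other genes was found by Pearson's r of log2 CPM over the 19 libraries, which share their depth and their groups. These values are the highest of many and are given as a description. *Gabpa* was most like the kinase gene *Slk* (r = 0.964), *Pprc1* like the spliceosome gene *Eftud2* (0.906) and *Tfam* like the mitochondrial carrier *Slc25a16* (0.903). *Esrra* was most like the zinc finger gene *Zfp64* (0.891), *Ppargc1b* like *Tent5a* (0.845), *Nrf1* like the DNA repair gene *Xrcc3* (0.844), *Polrmt* like *Aldh4a1*, a mitochondrial enzyme of proline breakdown (0.837), and *Yy1* like *Gsdme* (0.808). No regulator was the most similar gene of another, since regulators were not among the candidates.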

How the data were processed

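The 19 libraries were made from LSK cells and CMPs with the NucleoSpin RNA XS and SMART-Seq v4 kits. The authors mapped reads with STAR to mm10, removed duplicates with Picard and counted reads per GENCODE gene with HTSeq. The deposited values are whole read counts per gene, without normalization. Whether the kit kept strand is not given in the sources used here. Default parameters are stated for the software. HTSeq by default counts by strand. Exons of *Pprc1*, *Gabpa* and *Esrra* overlap those of genes on the opposite strand. To which gene reads there were counted depends on whether strand was kept, and this was not tested. Reads on no gene were 51.9 to 53.8% and ambiguous reads 0.694 to 0.827% of uniquely mapped reads, and stayed out of totals and tests. Totals ran from 3647318 to 5965155 counts, with a median of 4918631. At these depths *Ppargc1a* (mean 8.05 counts) and *Tfb2m* (mean 48.9 counts) are limited by counting error.

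Counts were tested with edgeR's quasi-likelihood test after TMM normalization and filterByExpr (minimum count 10, minimum total 15), with Benjamini-Hochberg adjustment over all genes tested and a threshold of 0.05. Knockdown was fitted within a cell type, with the *Spehd* shRNAs as 1 group or as separate groups, and cell types in a fit of 6 groups. Standard errors are the coefficient over the square root of F. Log2 CPM used a prior count of 2, and RPKM the exonic length in GENCODE vM21 (GRCm38). Alternatives were DESeq2, edgeR with upper quartile normalization or with size factors from DESeq2, a fit without the filter, a minimum of 10 counts throughout, replicate letters as a block, log2 total counts as a covariate, 1 fit of all libraries, and each library left out in turn. All 10 regulators are named throughout. Of the pathway lists the count called and the median are given, with at most 3 called genes by name per comparison. A gene that this rule names is not reported here. For each regulator with at least 50 counts, the 1 most similar gene is named, as are genes that overlap a regulator or share its promoter. The regulators and lists were chosen with earlier results of these data known. The fits were tested on simulated data. Versions used were Python 3.11.15 with pandas 2.3.3, numpy 2.4.6 and matplotlib 3.10.9, and R 4.3.3 with DESeq2 1.42.0, edgeR 4.0.16 and limma 3.58.1.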

Additional observations from a re-analysis of the deposited data

Results flagged for a closer look

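The level of each regulator was examined for a library that stands far from the others, in the *Renilla* groups of 4 and in the *Spehd* shRNA libraries of each cell type pooled. Of 40 such groups 2 held one, and chance marks about 1 in 20 groups. Both were the lowest *Tfb2m* value of a control group. In CMP *Renilla* replicate B *Tfb2m* was at 6.34 CPM from 26 counts, where the nearest of the other 3 controls was at 10.2 CPM. In LSK *Renilla* replicate A it was at 6.76 CPM from 32 counts, where the nearest was at 9.04 CPM. Without these libraries the log2 fold change of *Tfb2m* with both *Spehd* shRNAs was 0.30 in CMPs and -0.0079 in LSK cells.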

How the results depend on the processing

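Of the 3 regulator differences that passed, none changed sign in 41 values under the alternatives, and *Pprc1* between CMPs and LSK cells with sh10 passed in every one. Over all 116 fold changes, 827 of 923 values with 1 library left out and 843 of 899 under other alternatives kept their direction and their side of the threshold, and 79 and 41 changed sign. Among the fold changes named in the report, 18 of 62 changed sign under some alternative. The cause of these changes was not tested.

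The difference of *Polrmt* between CMPs and LSK cells with *Renilla* shRNA gave 0 regulators called with DESeq2's size factors (0.41), upper quartile normalization (0.39), no filter (0.40), a minimum of 10 counts throughout (0.40) and log2 total counts as a covariate (0.34), and 0 with any 1 library left out (0.39 to 0.50). That of *Polrmt* between sh20 and sh10 in CMPs gave 0 called with the replicate block (-0.54), with total counts as a covariate (-0.43) and in a fit of all 19 libraries (-0.58), and 0 to 1 with 1 library left out (-0.72 to -0.43). With sh10 in CMPs 1 regulator was called without a filter (*Pprc1*, 0.50) and 2 by DESeq2 (*Pprc1*, 0.50, and *Gabpa*, 0.39). With sh20 in CMPs *Ppargc1b* rose to 1.04 without sh20 replicate B, which leaves that arm without a replicate. Between CMPs and LSK cells with sh10, 2 were called without a filter (*Gabpa*, 0.57, joined) and 1 to 2 with 1 library left out (*Polrmt* joined, at 0.55 without LSK sh10 replicate B). With sh20, 1 was called without a filter (*Pprc1*, 0.53), by DESeq2 (0.54) and with the replicate block (0.63), and 0 to 1 with 1 library left out.

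Signs changed as follows. With both shRNAs in CMPs *Polrmt* went from -0.0044 to 0.0056 with DESeq2's size factors, 0.0061 without a filter, 0.0059 by DESeq2, 0.0445 with the replicate block and 0.20 with total counts as a covariate, *Nrf1* from 0.03 to -0.0193 with upper quartile normalization, and *Gabpa* from 0.30 to -0.22 with total counts as a covariate. With that covariate *Pprc1* went from 0.12 to -0.19 and *Gabpa* from 0.19 to -0.46 with sh20 in CMPs, *Ppargc1b* from -0.07 to 0.0709 in LSK cells, and *Ppargc1b* from 0.07 to -0.0362 and *Gabpa* from -0.09 to 0.0425 between CMPs and LSK cells with *Renilla* shRNA. In LSK cells *Ppargc1a* went from -0.0055 to 0 with DESeq2's size factors, 0.0018 without a filter and 0.015 by DESeq2, and with sh20 *Polrmt* between CMPs and LSK cells went from 0.04 to -0.0049 with the replicate block. With 1 library left out, the ranges that crossed 0 in CMPs with both shRNAs were -0.0059 to 0.0976 for *Nrf1*, -0.12 to 0.0505 for *Yy1*, -0.013 to 0.15 for *Tfam* and -0.11 to 0.0961 for *Polrmt*. In LSK cells they were -1.19 to 0.27 for *Ppargc1a*, -0.17 to 0.0684 for *Ppargc1b*, -0.17 to 0.0585 for *Pprc1*, -0.0166 to 0.0906 for *Tfam* and -0.0079 to 0.15 for *Tfb2m*, and with sh10 -0.62 to 0.12 for *Gabpa*. With sh20 they were -1.46 to 1.04 for *Ppargc1b* in CMPs, and between CMPs and LSK cells -0.98 to 1.54 for *Ppargc1b* and -0.094 to 0.25 for *Polrmt*.

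Replicate letters were not taken to pair the libraries. Deviations from group means correlated at -0.0006 to 0.238 (median 0.0543) over the 9 CMP and LSK pairs that share shRNA and letter, and at -0.111 to 0.104 over the 16 pairs with the same letter and cell type. With the replicate block the genes called with sh20 in CMPs went from 853 to 0, between sh20 and sh10 from 886 to 28, and with sh10 from 272 to 5.

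Genes called over the whole table also moved. With both shRNAs in CMPs 15 genes became 0 to 882, the last by DESeq2, and 0 to 264 with 1 library left out, highest without CMP sh20 replicate B. With sh10 in CMPs 272 became 1 to 1209, and 9 without CMP sh10 replicate B. With sh20 853 became 0 to 1709, and 430 without CMP *Renilla* replicate B to 3191 without CMP sh20 replicate C. Between the shRNAs 886 became 28 to 1982, and 84 without CMP sh10 replicate B to 3484 without CMP sh20 replicate C. Between cell types 2424 with sh10 fell to 1291 without CMP sh10 replicate B, and 2197 with sh20 fell to 1436 without CMP sh20 replicate B and 1317 with at least 10 counts in every library. For the difference of the effects 8 became 0 to 253, and 0 to 263 with 1 library left out. In LSK cells 0 became up to 9 with sh10, 195 with sh20 and 256 between the shRNAs, or 5 without LSK sh20 replicate B.

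The sh20 arm in CMPs had 2 libraries. With 1 of them left out, the other is assumed to vary like the other groups. The mean counts of *Ppargc1a* (8.05) and *Tfb2m* (48.9) were the lowest of the 10 regulators.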
